A study of Homo sapiens with 12 samples.

Results

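The genes described here encode the glycosyltransferases that build, branch and cap the sugar chains of the cell surface. They were gathered as named gene families and sorted by gene name alone into 12 enzyme classes. A class is named for a sugar and a bond, but can hold an enzyme of another kind. RefSeq, for example, names B3GNTL1 as QTGAL and FUT11 as POFUT4. The families hold 92 of the 23228 genes in the files, and 65 of the 92 were expressed well enough to be tested. They were singled out because 2 of them, A4GALT and MGAT3, were known to rise strongly when estradiol was given to cells making estrogen receptor beta. Their levels in the 4 groups are therefore given as a description, with no test.

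Glycosyltransferases sit mostly in the Golgi, where each moves a sugar from an activated nucleotide donor onto a growing chain on a protein or a lipid. N-glycans start from a shared core and are split into branches by the MGAT enzymes, while O-glycans of the mucin type start when a GALNT enzyme attaches N-acetylgalactosamine to serine or threonine. Chains of both kinds, and those of glycolipids, are then lengthened by galactosyl- and N-acetylglucosaminyltransferases and ended by fucosyl- and sialyltransferases. Altered branching, fucosylation and sialylation are well-known features of breast cancer cell surfaces.

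RNA was sequenced from MDA-MB-468, an established human triple-negative breast cancer line that in all 12 libraries carried a doxycycline-inducible estrogen receptor beta 1 (gene ESR2). All cells grew in phenol red-free DMEM with charcoal-stripped serum, at 10% for 3 days and at 5% during the experiment. Induced cells had 50 ng/mL doxycycline for 48 h and uninduced cells had none, and each then had 0.1% DMSO (vehicle) or 10 nM 17β-estradiol (E2) for 4 h. This gave 4 groups of 3 libraries, named by induction and by what was added in the last hours (for example induced vehicle and induced E2). No group of cells without the construct is part of the 4, so receptor induction and doxycycline itself cannot be told apart. The labels do not say whether the line was 1 clone, or whether replicates came from separate cultures, so the spread behind every p-value may be technical.

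Levels are given as TMM-scaled CPM, the counts among each 1000000 counts of a library, or as TPM, the transcripts among each 1000000 transcripts, which takes gene length into account and is used to compare genes. Libraries held 7889310 to 33326849 expected counts, of which the 92 genes took 0.290% to 0.332%. ESR2 lay between 1.06 and 2.26 CPM in the 6 uninduced libraries and between 98 and 134 CPM in the 6 induced ones, as labelled. The 5 epithelial and 5 basal breast markers were detected in every library. Their summed levels moved with induction: basal markers summed to 2851 to 3052 TPM in uninduced and 1945 to 2329 TPM in induced libraries, and epithelial markers to 7227 to 7690 TPM and 8388 to 10107 TPM. Leukocyte markers summed to 30.4 to 52.4 TPM (CD14 made up nearly all of it, and CD3E was at 0 in 11 libraries), fibroblast markers to 8.15 to 10.1 TPM (COL1A2 was at 0 in 9 libraries and COL3A1 in 8), and endothelial markers to 12.7 to 18.6 TPM in uninduced and 7.30 to 9.93 TPM in induced libraries. The part of these marker shifts in the results was not tested.

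The start regions of 3 genes on which the results turn are shown first, from RefSeq on GRCh38.p14. They are A4GALT, which had the largest described rise with E2, GCNT3, which had the largest tested rise, and ST6GAL1, which had the largest tested fall. Each window runs 5′ to 3′ on the gene's own strand, from 250 bases before to 50 bases after an annotated start. Capitals mark a single arm of the estrogen response element (GGTCA or TGACC) or an AP-1 element (TGANTCA), the site of the Fos and Jun factors.
A4GALT, first window, chr22:42720821-42721120, minus strand: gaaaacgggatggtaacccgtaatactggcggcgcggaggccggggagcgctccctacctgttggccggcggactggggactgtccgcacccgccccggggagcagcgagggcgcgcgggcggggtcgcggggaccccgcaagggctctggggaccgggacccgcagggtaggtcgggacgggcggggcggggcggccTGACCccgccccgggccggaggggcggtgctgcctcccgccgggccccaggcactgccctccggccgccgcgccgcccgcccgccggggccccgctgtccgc
A4GALT, second window, chr22:42721252-42721551, minus strand: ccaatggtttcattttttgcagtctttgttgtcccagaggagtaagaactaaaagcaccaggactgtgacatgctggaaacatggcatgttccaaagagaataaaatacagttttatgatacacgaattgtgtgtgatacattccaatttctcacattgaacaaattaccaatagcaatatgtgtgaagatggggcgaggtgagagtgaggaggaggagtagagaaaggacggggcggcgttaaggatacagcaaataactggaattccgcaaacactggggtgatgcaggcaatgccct
GCNT3, chr15:59611533-59611832, plus strand: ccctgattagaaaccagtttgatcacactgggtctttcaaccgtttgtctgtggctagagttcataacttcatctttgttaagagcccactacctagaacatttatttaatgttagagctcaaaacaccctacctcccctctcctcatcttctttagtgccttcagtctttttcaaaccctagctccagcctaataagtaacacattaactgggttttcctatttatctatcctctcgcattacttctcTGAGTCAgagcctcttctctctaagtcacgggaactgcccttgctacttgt
ST6GAL1, chr3:186930276-186930575, plus strand: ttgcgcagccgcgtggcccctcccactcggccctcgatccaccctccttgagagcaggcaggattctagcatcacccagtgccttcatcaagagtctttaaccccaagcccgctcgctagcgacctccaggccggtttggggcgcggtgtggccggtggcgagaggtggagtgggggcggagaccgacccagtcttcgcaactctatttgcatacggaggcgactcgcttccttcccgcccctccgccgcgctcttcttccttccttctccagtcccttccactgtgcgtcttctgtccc

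The full palindromic estrogen response element (GGTCA and TGACC set 3 bases apart) was in none of the 111 windows of the 65 members that have one, and in 0.057% of the 35116 windows of all genes. These members are not the 65 tested genes. Some of them, such as A4GNT, were not tested, while MGAT3 and ST8SIA6 had no window and were not searched. Single arms, searched on both strands, were in 36.9% of the members' windows and 37.4% of all windows. The AP-1 element was in 4.5% of the members' windows and 7.71% of all, and the GC box (GGGCGG or CCGCCC) in 59.5% and 45%. Every full element contains 2 single arms, so those searches overlap. The first A4GALT window held 1 single arm and 9 GC boxes, the GCNT3 window held 1 AP-1 element beginning at base 250, and the ST6GAL1 window held 2 GC boxes and neither a single arm nor an AP-1 element. These are matches of letters within short windows and show no binding.

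Per length, the highest levels were those of enzymes of N-glycan branching and O-glycan initiation. MGAT4B, which adds a β1,4 branch to N-glycans, led with a mean of 244 TPM over all 12 libraries (216 to 269). GALNT10, an O-glycan GalNAc transferase, followed at 134 TPM (83.4 to 191), MGAT1, which starts complex N-glycans, at 132 TPM (124 to 142), and B3GNT3, which lengthens core 1 O-glycans, at 106 TPM (80.7 to 169.5). The ranges of GALNT10, MGAT1 and B3GNT3 over all 12 libraries overlapped, and their order turned with the group. In uninduced vehicle cells MGAT1 stood at 134 ± 6.72 TPM, above GALNT10 at 89.95 ± 6.33 TPM and B3GNT3 at 86.2 ± 2.14 TPM. In induced E2 cells GALNT10 stood at 189 ± 1.85 TPM, above B3GNT3 at 162 ± 6.86 TPM and MGAT1 at 127 ± 3.05 TPM. In the other classes the most abundant members by the mean over all 12 libraries were ST3GAL1 at 81.8 TPM, B4GALT2 at 77.2 TPM, ST6GALNAC5 at 39.7 TPM, FUT3 at 26.7 TPM, B3GALT6 at 26.5 TPM, GCNT2 at 26.3 TPM, B4GALNT3 at 15.8 TPM, A4GALT at 7.05 TPM and ST8SIA6 at 5.06 TPM. In 4 classes the leader by group mean turned with the group. In induced E2 cells ST3GAL4 stood above ST3GAL1 (69.5 ± 2.98 against 57.1 ± 3.08 TPM), B4GALT1 above B4GALT2 (101 ± 5.63 against 71.2 ± 1.39 TPM) and ST6GALNAC6 above ST6GALNAC5 (33.4 ± 1.73 against 26.3 ± 1.97 TPM). ST8SIA1 stood above ST8SIA6 in both uninduced groups (4.73 ± 0.34 against 1.53 ± 0.276 TPM in uninduced vehicle cells).

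**Figure D1:**
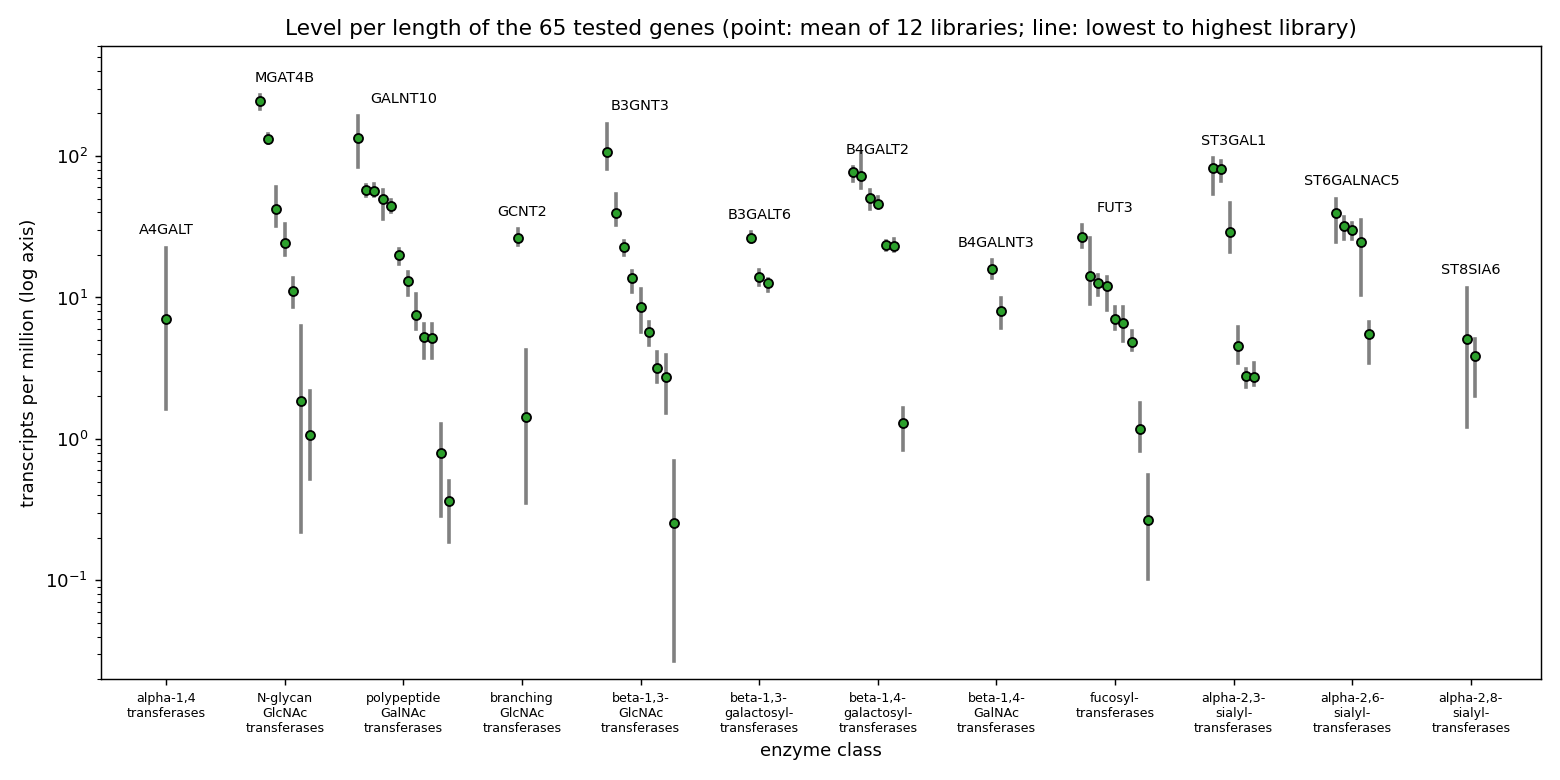
TPM on a log axis (vertical) of the 65 tested genes by enzyme class (horizontal); each point is the mean of the 12 libraries and each line runs from the lowest to the highest library. MGAT4B stands highest at 244 TPM, and the long lines of A4GALT and MGAT3 mark genes whose level differed widely between libraries.

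The 27 members that were not tested never exceeded 0.624 CPM in any library. They were A4GNT, B3GALT1, B3GALT2, B3GALT5, B3GNT8, B4GALNT1, B4GALNT2, FUT5, FUT7, GALNT5, GALNT8, GALNT9, GALNT13, GALNTL4, GALNTL5, GALNTL6, GCNT1, GCNT4, GCNT7, MGAT4C, ST6GAL2, ST6GALNAC1, ST6GALNAC3, ST8SIA2, ST8SIA3, ST8SIA4 and ST8SIA5. Of these, GALNTL5, MGAT4C, ST6GALNAC1, ST8SIA2 and ST8SIA3 (5 genes) had 0 counts in all 12 libraries, which allows up to 3 counts, or 0.0896 to 0.375 CPM depending on the library. B4GALNT1, which makes the gangliosides GM2 and GD2, and FUT7, which makes sialyl Lewis x on leukocytes, were thus under the limit of testing.

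A4GALT and MGAT3 were the members chosen for their response, and their levels are described here without a test. A4GALT makes globotriaosylceramide (Gb3) by adding an α1,4-linked galactose to lactosylceramide. It stood at 2.37, 3.36 and 3.1 CPM in the uninduced vehicle libraries and at 2.49, 3.67 and 2.9 CPM in the uninduced E2 libraries. Induced vehicle libraries held 1.55, 2.83 and 2.68 CPM and induced E2 libraries 13.8, 22.1 and 21.7 CPM. The 3 induced E2 libraries lay far above the other 9, which overlapped one another. The means were 2.36 ± 0.697 CPM in induced vehicle and 19.2 ± 4.69 CPM in induced E2 cells (SD, n = 3), a log2 difference of 2.95 ± 0.21 (SE). In bulk RNA, more cells with a transcript and more transcript per cell cannot be told apart.

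The library numbered 1 was the lowest for A4GALT in each of the 4 groups, and the deposited file names give number 1 an earlier date than numbers 2 and 3. Within the later date alone the E2 difference in induced cells was 2.98 on the log2 scale. The log2 difference of A4GALT was -0.31 ± 0.27 for doxycycline without E2 and 0.01 ± 0.25 for E2 in uninduced cells.

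MGAT3 adds the bisecting N-acetylglucosamine to N-glycans, a sugar that hinders further branching. Its levels were 0.50, 0.868 and 0.635 CPM in uninduced vehicle, 0.509, 0.777 and 0.517 CPM in uninduced E2, 2.1, 2.33 and 2.42 CPM in induced vehicle and 15, 12.9 and 14.5 CPM in induced E2 libraries. The levels thus made 2 steps, and neither induced group overlapped the other or the uninduced libraries. The first step, with doxycycline alone, was log2 1.68 ± 0.21, a 3.19-fold higher level. The second step, with E2 in induced cells, was log2 2.61 ± 0.13, and E2 in uninduced cells gave -0.20 ± 0.26. Per length, MGAT3 reached 5.89 ± 0.464 TPM in induced E2 cells, below the 19.5 ± 4.82 TPM of A4GALT.

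**Figure D2:**
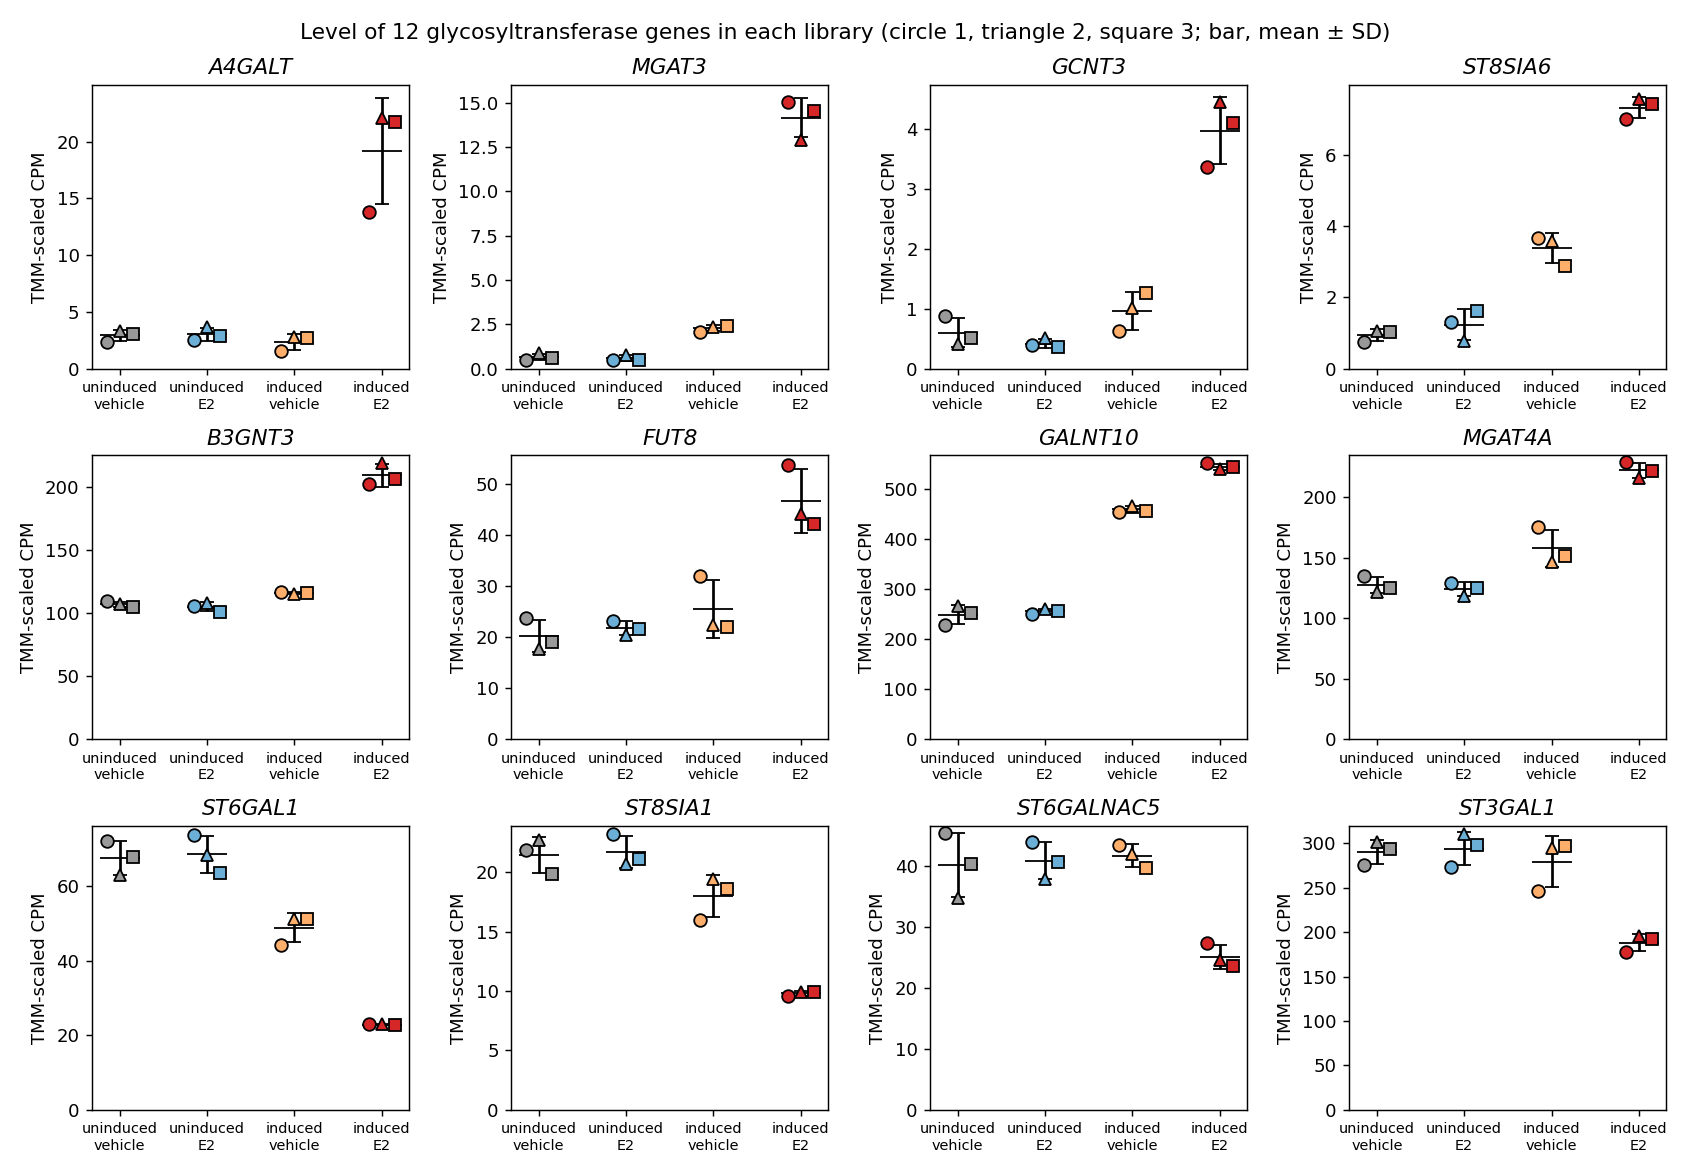
TMM-scaled CPM (vertical) of 12 genes in each library by group (horizontal); circles, triangles and squares are libraries 1, 2 and 3, and bars give the mean ± SD. A4GALT stands at 13.8 to 22.1 CPM in the induced E2 libraries, MGAT3 and ST8SIA6 are already higher in induced vehicle libraries, and ST6GAL1 falls at both steps.

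Over all members, E2 in induced cells gave 31 calls among the 65 tested, 20 that rose and 11 that fell, at an adjusted p under 0.05 (edgeR quasi-likelihood test, Benjamini-Hochberg adjustment). Of all 14541 tested genes 16.5% were called in that comparison (9.85% rose and 6.61% fell). Because A4GALT and MGAT3 were chosen on this comparison, nothing is read from the share. Without that pair 18 rose, 11 fell and 34 were not called, and the median log2 change over the 65 was 0.00588, beside -0.00497 over all genes. By class, the branching enzymes held rises and no falls. None of 7 MGAT members fell, and MGAT2, MGAT4A and MGAT5B rose, with MGAT3 left out as a chosen gene. Both tested GCNT members rose. Of 9 B3GNT members 4 rose and 1 fell, whereas the α2,6-sialyltransferases had 2 members that fell and none that rose. The other classes held calls in both directions or few calls: 3 of 9 fucosyltransferases rose and 1 fell, 3 of 12 GALNT members rose and 2 fell, 1 of 6 α2,3-sialyltransferases rose and 2 fell, 1 each of the 7 B4GALT and the 2 α2,8-sialyltransferases rose and fell, 1 of 2 B4GALNT members fell, and none of 3 B3GALT members was called.

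**Figure D3:**
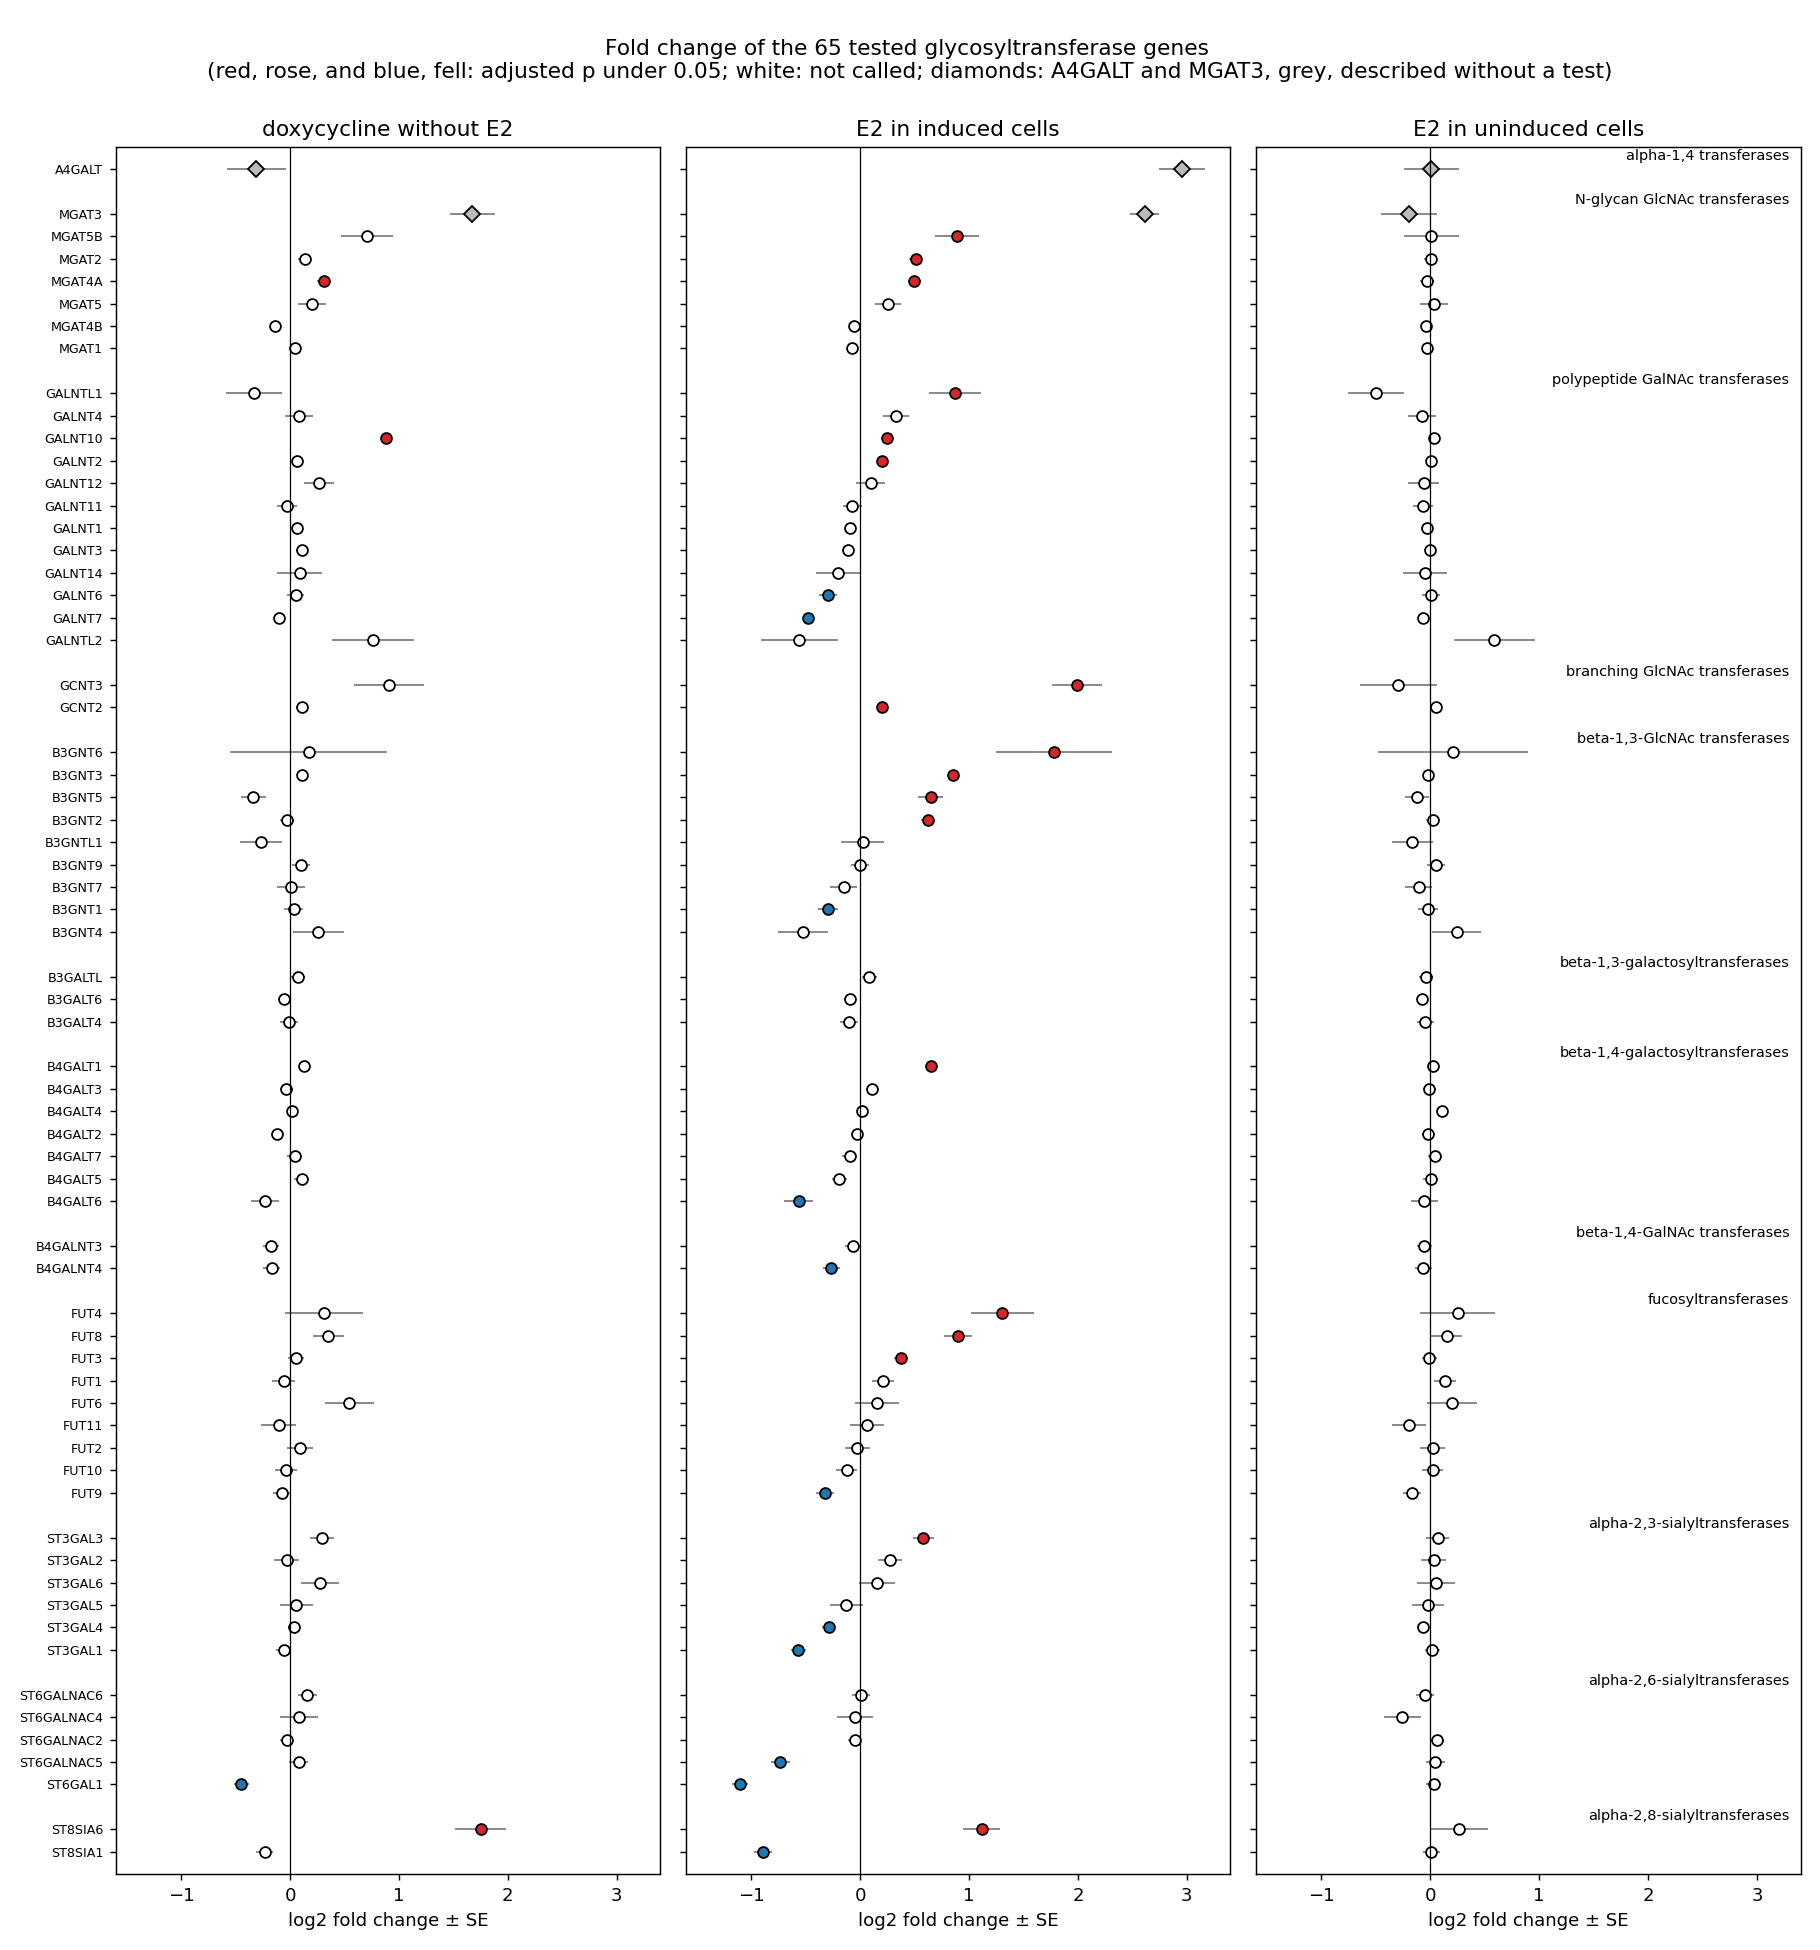
Log2 fold change ± SE (horizontal) of the 65 tested genes, ordered by enzyme class (vertical), for doxycycline without E2, E2 in induced cells and E2 in uninduced cells. In uninduced cells no gene is coloured, while in induced cells 18 are red and 11 blue, with A4GALT and MGAT3 drawn grey in every panel because they were chosen for their levels.

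Among the other N-glycan branching enzymes, MGAT2, MGAT4A and MGAT5B rose with E2 in induced cells. MGAT2, which adds the second antenna of complex N-glycans, went from 29.1, 28.7 and 28.8 CPM in induced vehicle to 43, 39.5 and 41 CPM in induced E2 libraries, log2 0.51 ± 0.06, adjusted p = 2.23e-05. The range over the 6 uninduced libraries was 24.7 to 29.6 CPM, below the induced E2 group. MGAT4A, which adds a β1,4 branch, went from 175, 147 and 151 to 228.77, 216 and 221 CPM, log2 0.50 ± 0.06, adjusted p = 3.55e-05, and was also higher with doxycycline alone (log2 0.31 ± 0.06, adjusted p = 0.0097), from 135, 122 and 125 CPM (uninduced E2 129, 118 and 125 CPM). The doxycycline call was lost without either uninduced vehicle library 2 (adjusted p = 0.0619) or 3 (0.0511), and without the 4 libraries numbered 2 (0.0815) or 3 (0.224). MGAT5B, a brain-enriched relative of MGAT5, was low throughout: 2.72, 1.73 and 1.89 CPM against 4.49, 3.22 and 3.69 CPM (uninduced 0.999 to 1.47 CPM), log2 0.89 ± 0.20, adjusted p = 0.00682. Without induced vehicle library 2 its adjusted p was 0.0564, and without number 2 or 3 it was 0.0937 and 0.154. MGAT5 itself, which adds the β1,6 branch associated with invasive carcinoma, gave log2 0.25 ± 0.12, adjusted p = 0.195, so that no change was shown. MGAT1 and the most abundant member MGAT4B gave log2 -0.07 ± 0.04 and -0.05 ± 0.04 and were not called.

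The largest tested rise was that of an O-glycan branching enzyme, GCNT3. GCNT3, which forms the core 2 and core 4 branches of mucin-type chains, stood at 0.874, 0.415 and 0.516 CPM in uninduced vehicle, 0.396, 0.508 and 0.358 CPM in uninduced E2, 0.622, 1.01 and 1.26 CPM in induced vehicle and 3.36, 4.44 and 4.09 CPM in induced E2 libraries. The induced E2 libraries were above all others, and the rise with E2 in induced cells was log2 1.99 ± 0.23, adjusted p = 2.33e-05. With doxycycline alone GCNT3 gave log2 0.91 ± 0.32, adjusted p = 0.163, which did not pass. GCNT2, which adds I branches to poly-N-acetyllactosamine, rose slightly (log2 0.20 ± 0.05, adjusted p = 0.00894), though its adjusted p was 0.0559 without induced vehicle library 2, and 0.163 and 0.110 without number 2 or 3. Its induced E2 libraries held 66.1, 62.3 and 62.8 CPM and its induced vehicle libraries 58.1, 52.1 and 56.9 CPM.

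B3GNT3 had the smallest adjusted p among the tested rises with E2 in induced cells. It stood at 109, 107 and 105 CPM in uninduced vehicle and 106, 108 and 101 CPM in uninduced E2 libraries, at 117, 115 and 116 CPM in induced vehicle and at 202, 219 and 206 CPM in induced E2 libraries. The 3 induced E2 libraries stood clear of the other 9, and the change was log2 0.85 ± 0.04, adjusted p = 2.29e-09. B3GNT2, the main enzyme of poly-N-acetyllactosamine, went from 41.6, 43.7 and 46.6 to 62.8, 70.7 and 69.6 CPM (uninduced 42 to 48.5 CPM, log2 0.62 ± 0.06, adjusted p = 6.20e-06). B3GNT5, which starts the lacto-series glycolipids, went from 11, 13.5 and 15 to 18.8, 22.6 and 20.9 CPM (uninduced 13.1 to 17.9 CPM, log2 0.65 ± 0.11, adjusted p = 9.01e-04), and lost its call without number 2 (0.0682). With the replicate number as a block, B3GNT5 was also lower with doxycycline alone (log2 -0.31, adjusted p = 0.0124). B3GNT6, which makes the core 3 O-glycan, was near the limit of counting, with 0.0777, 0.0943 and 0.421 CPM in induced vehicle and 0.398, 0.826 and 0.719 CPM in induced E2 libraries; these overlapped, 2 induced vehicle libraries held under 3 counts, and the call (log2 1.78 ± 0.53, adjusted p = 0.0345) was lost under DESeq2 (adjusted p = 0.115). It was also lost without induced vehicle library 1 (0.0769) or 2 (0.222) and without induced E2 library 3 (0.0964). Without induced vehicle library 3 the B3GNT6 change was log2 2.82, so 1 library decides its size. B3GNT1 fell by 0.29 on the log2 scale (adjusted p = 0.0372), and lost its call under DESeq2 (0.0732) and without any 1 of induced vehicle libraries 2 and 3 and induced E2 libraries 1 and 2 (up to 0.162).

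Among the galactosyltransferases B4GALT1, the main enzyme that adds β1,4-galactose to N-glycan branches, rose, and B4GALT6, one of the lactosylceramide synthases, fell. B4GALT1 stood at 115, 121 and 119 CPM in uninduced vehicle, 119, 122 and 119 CPM in uninduced E2, 125, 132 and 132 CPM in induced vehicle and 191, 211 and 208 CPM in induced E2 libraries, log2 0.65 ± 0.04, adjusted p = 7.07e-08. The induced E2 libraries were above all 9 others. B4GALT6 stood at 3.62, 3.1 and 3.69 CPM in uninduced vehicle, 3.34, 3.29 and 3.3 CPM in uninduced E2, 2.64, 3.05 and 3.0 CPM in induced vehicle and 1.99, 1.93 and 2.02 CPM in induced E2 libraries, log2 -0.57 ± 0.14, adjusted p = 0.00958. This call was lost under DESeq2 (adjusted p = 0.0720), without induced vehicle library 2 (0.0656) and without number 2 (0.209) or 3 (0.165). B4GALT5, the other lactosylceramide synthase, gave log2 -0.19 (adjusted p = 0.0812) and passed with the replicate number as a block (0.00147). B4GALNT4, which helps build the LacdiNAc unit, fell by 0.26 on the log2 scale (adjusted p = 0.032), and lost its call under DESeq2 (0.0998) and without any 1 of the same 4 libraries as B3GNT1 (up to 0.182).

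Of the fucosyltransferases, FUT8, FUT3 and FUT4 rose and FUT9 fell. FUT8, which adds the core fucose of N-glycans, held 23.7, 17.8 and 19.1 CPM in uninduced vehicle, 23.2, 20.6 and 21.7 CPM in uninduced E2, 32.1, 22.4 and 22 CPM in induced vehicle and 53.9, 44.2 and 42.2 CPM in induced E2 libraries. The induced E2 libraries lay above the rest, with log2 0.90 ± 0.13, adjusted p = 1.95e-04, and library 1 was the highest in all 4 groups. With doxycycline alone FUT8 gave log2 0.35 ± 0.14, adjusted p = 0.244, and 0.00467 with the replicate number as a block. FUT3, which makes Lewis antigens, rose by log2 0.38 ± 0.07, adjusted p = 0.00103, reaching 33.8, 34 and 33.9 CPM, and lost its call without number 2 (adjusted p = 0.0516). FUT3, FUT5 and FUT6 are near-identical, so reads may have been split among them. FUT4, which makes Lewis x, stayed low at 1.65, 1.34 and 1.53 CPM in induced E2 libraries against 0.622, 0.534 and 0.684 CPM in induced vehicle (log2 1.31 ± 0.29, adjusted p = 0.00524), and lost its call without number 2 (0.0653) or 3 (0.107). FUT9, another Lewis x enzyme and far more highly counted, had 83.6, 73.8 and 74.6 CPM and then 51.2, 65 and 67.8 CPM, a change of log2 -0.32 ± 0.08, adjusted p = 0.0153. The change was log2 -0.21 without induced E2 library 1 and -0.16 without number 1, and the call was lost without number 2 (0.0840) or 3 (0.0556).

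The sialyltransferases held the largest falls, and they also held rises. ST6GAL1, which caps N-glycans with α2,6-linked sialic acid, stood at 72.1, 62.9 and 67.8 CPM in uninduced vehicle and 73.7, 68.3 and 63.7 CPM in uninduced E2 libraries. It was 44.4, 51.2 and 51.2 CPM in induced vehicle and 23, 22.9 and 22.7 CPM in induced E2 libraries. The gene was lower at both steps, and the 3 groups did not overlap: log2 -0.45 ± 0.07, adjusted p = 0.00108 with doxycycline alone, and log2 -1.10 ± 0.07, adjusted p = 7.19e-08 with E2 in induced cells. The doxycycline call was lost without the 4 libraries numbered 3 (adjusted p = 0.0561). ST6GALNAC5, which sialylates gangliosides, held 43.4, 42 and 39.6 CPM in induced vehicle and 27.3, 24.5 and 23.5 CPM in induced E2 libraries (log2 -0.73 ± 0.09, adjusted p = 3.21e-05). The uninduced libraries of ST6GALNAC5 lay between 34.7 and 45.3 CPM, all above the induced E2 libraries.

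The 2 tested α2,8-sialyltransferases moved in opposite directions. ST8SIA1, the GD3 synthase, stood at 21.9, 22.7 and 19.8 CPM in uninduced vehicle, 23.2, 20.7 and 21.1 CPM in uninduced E2, 16, 19.4 and 18.6 CPM in induced vehicle and 9.55, 9.91 and 9.93 CPM in induced E2 libraries, a fall of log2 -0.89 ± 0.09, adjusted p = 3.70e-06. ST8SIA6, which adds short sialic acid chains to O-glycans, stood at 0.749, 1.06 and 1.03 CPM in uninduced vehicle, 1.3, 0.777 and 1.63 CPM in uninduced E2, 3.65, 3.58 and 2.89 CPM in induced vehicle and 6.99, 7.55 and 7.42 CPM in induced E2 libraries. It rose at both steps without overlap, by log2 1.75 ± 0.23, adjusted p = 4.26e-04 with doxycycline alone and log2 1.12 ± 0.17, adjusted p = 3.08e-04 with E2 in induced cells.

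Of the α2,3-sialyltransferases, ST3GAL1 fell and ST3GAL3 rose. ST3GAL1, which caps core 1 O-glycans, ranged over 274 to 310.4 CPM in uninduced libraries, and stood at 246, 294 and 297 CPM in induced vehicle and 177, 196 and 192 CPM in induced E2 libraries (log2 -0.57 ± 0.07, adjusted p = 3.77e-05). ST3GAL3, which caps N-acetyllactosamine, ranged over 21.4 to 26.1 CPM in uninduced libraries and went from 33.5, 26.2 and 27.5 CPM in induced vehicle to 48.5, 42 and 38.5 CPM in induced E2 libraries (log2 0.58 ± 0.10, adjusted p = 7.71e-04). ST3GAL4, which acts on the same unit, fell by 0.29 on the log2 scale (adjusted p = 0.00209). Without number 2 both calls were lost (0.0597 for ST3GAL3 and 0.0582 for ST3GAL4), and that of ST3GAL4 also without number 3 (0.137). ST3GAL5, which makes the ganglioside GM3 from lactosylceramide, gave log2 -0.13 ± 0.15, adjusted p = 0.664 and was not called.

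Among the polypeptide GalNAc transferases, which start O-glycans, 5 were called with E2 in induced cells. GALNT7, which prefers peptides that already carry GalNAc, fell from 99.9, 105 and 109.9 CPM in induced vehicle to 75.1, 76 and 74.3 CPM in induced E2 libraries (log2 -0.48 ± 0.04, adjusted p = 6.32e-07). Its uninduced libraries lay between 106 and 114 CPM, above the induced E2 group. GALNT6 fell by 0.30 on the log2 scale (adjusted p = 0.0198). GALNTL1 rose by log2 0.87 ± 0.24, adjusted p = 0.0226, from 1.17, 1.19 and 1.21 to 2.33, 2.01 and 2.25 CPM (uninduced 0.566 to 1.59 CPM). The GALNT6 and GALNTL1 calls were both lost without any 1 of induced vehicle libraries 2 and 3 and induced E2 libraries 1 and 3, with adjusted p up to 0.0986 for GALNT6 and 0.0851 for GALNTL1. Without number 2 or 3 both were lost too (up to 0.221 for GALNT6 and 0.213 for GALNTL1). GALNT2 rose by log2 0.20 ± 0.04, adjusted p = 0.00242, and lost its call without number 2 (0.0550). GALNT10 rose mostly with doxycycline: 229.31, 267 and 252 CPM in uninduced vehicle (249.7, 260.4 and 257 CPM in uninduced E2) became 455, 467 and 456 CPM in induced vehicle libraries (log2 0.88 ± 0.04, adjusted p = 4.32e-08, 1.84-fold), and 551, 539.6 and 544 CPM in induced E2 libraries (log2 0.25 ± 0.04, adjusted p = 0.00103). The second of these calls was lost without number 3 (0.0739).

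Doxycycline without E2 gave 5 calls among the 65 members, which are 7.69% beside 3.81% of all tested genes (2.44% rose and 1.37% fell). The count includes MGAT3, for which it is a description, so nothing is read from the share. Of the other 63 members 3 rose, ST8SIA6, GALNT10 and MGAT4A, and 1 fell, ST6GAL1, with the values given above. Upper quartile scaling and DESeq2 each gave 4 that rose and 2 that fell, and the replicate number as a block gave 7 that rose and 3 that fell. Over all 14541 genes the main fit gave 355 that rose and 199 that fell. Upper quartile scaling gave 326 and 230, DESeq2 388 and 204, and the block 805 and 651. The members added by the block were FUT8 (log2 0.32), ST3GAL3 (0.27, adjusted p = 0.00636), B4GALT1 (0.13, adjusted p = 0.0122), B3GNT5 and MGAT4B (-0.14, adjusted p = 0.0124). The induced vehicle libraries enter both this comparison and that of E2 in induced cells.

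E2 in uninduced cells gave no call among the 65 members and none among all 14541 genes (0%) by edgeR's quasi-likelihood test. At an unadjusted p under 0.05 it gave 1 member, B4GALT4 (log2 0.11), and 227 genes overall. DESeq2 called no member and 1 gene, and the replicate block called none. The 5 tested members that moved most with E2 in induced cells gave log2 -0.29 ± 0.36 for GCNT3, 0.21 ± 0.69 for B3GNT6, 0.25 ± 0.34 for FUT4, 0.26 ± 0.27 for ST8SIA6 and 0.03 ± 0.06 for ST6GAL1 here.

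Whether the E2 change itself differed between induced and uninduced cells was tested as an interaction, which called 19 of 65 members (14 upward and 5 downward, 29.2%) beside 8.47% of all genes (5.66% upward and 2.81% downward). The count includes A4GALT (log2 2.95 ± 0.34) and MGAT3 (2.81 ± 0.30), for which it is a description, and it rests on the induced E2 libraries that chose them, so nothing is read from the share. In the other 63 members, 12 were upward and 5 downward, with GCNT3 (log2 2.29 ± 0.43, adjusted p = 0.00364), B3GNT3 (0.88 ± 0.06, adjusted p = 2.58e-07) and B4GALT1 (0.63 ± 0.06, adjusted p = 1.01e-05) among the first and ST6GAL1 (-1.13 ± 0.10, adjusted p = 3.70e-06), ST8SIA1 (-0.90 ± 0.11, adjusted p = 1.40e-04) and ST6GALNAC5 (-0.78 ± 0.12, adjusted p = 7.97e-04) among the second. Of these 6, GCNT3 lost the interaction call without number 2 (adjusted p = 0.0637) or 3 (0.101) and ST6GALNAC5 without number 3 (0.0650). With the replicate number as a block GALNT10 (log2 0.22), B4GALT5 (-0.20), GALNT6 (-0.31) and ST3GAL4 (-0.23) were called too.

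Doxycycline with E2 present, the difference between induced E2 and uninduced E2 cells, called 34 of 65 members (24 rose, 10 fell, 52.3%) beside 28% of all genes (15% rose and 13% fell). Upper quartile scaling gave 23 members that rose and 15 that fell, beside 1799 and 2679 of all 14541 genes. As A4GALT and MGAT3 were also described on the induced E2 libraries, the share is not read as a result. The larger changes ran from log2 3.20 ± 0.25 for GCNT3 (adjusted p = 2.87e-07) and 2.61 ± 0.19 for ST8SIA6 (adjusted p = 1.38e-07) down to -1.58 ± 0.07 for ST6GAL1 (adjusted p = 5.57e-10). MGAT3 stood at log2 4.48 ± 0.16 and A4GALT at 2.64 ± 0.20, both without a test. The 5 members called here and in no comparison above were GALNT4 (log2 0.49 ± 0.12, adjusted p = 0.00708), MGAT5 (0.43 ± 0.12, adjusted p = 0.0147), GALNT12 (0.43 ± 0.13, adjusted p = 0.0259), B3GALTL (0.20 ± 0.06, adjusted p = 0.0344) and MGAT4B (-0.16 ± 0.04, adjusted p = 0.00921). Of these, MGAT5 lost its call without uninduced E2 library 2 (0.0878) or 3 (0.0728) or induced E2 library 3 (0.0620), and GALNT12 without uninduced E2 library 1 (0.0831) or 3 (0.0618) or induced E2 library 2 (0.0868) or 3 (0.0838). B3GALTL lost it without any 1 of 5 of the 6 libraries compared (up to 0.0966), uninduced E2 library 2 being the exception, and under DESeq2 (0.0602) and upper quartile scaling (0.0866). MGAT4B lost it without induced E2 library 3 (0.0502). Each of the 5 lost it without number 2 and without number 3, with adjusted p from 0.0915 to 0.237, and GALNT4 was then log2 0.30 without number 2. GALNT4 overlaps a read-through gene, so its count may be shared.

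**Figure D4:**
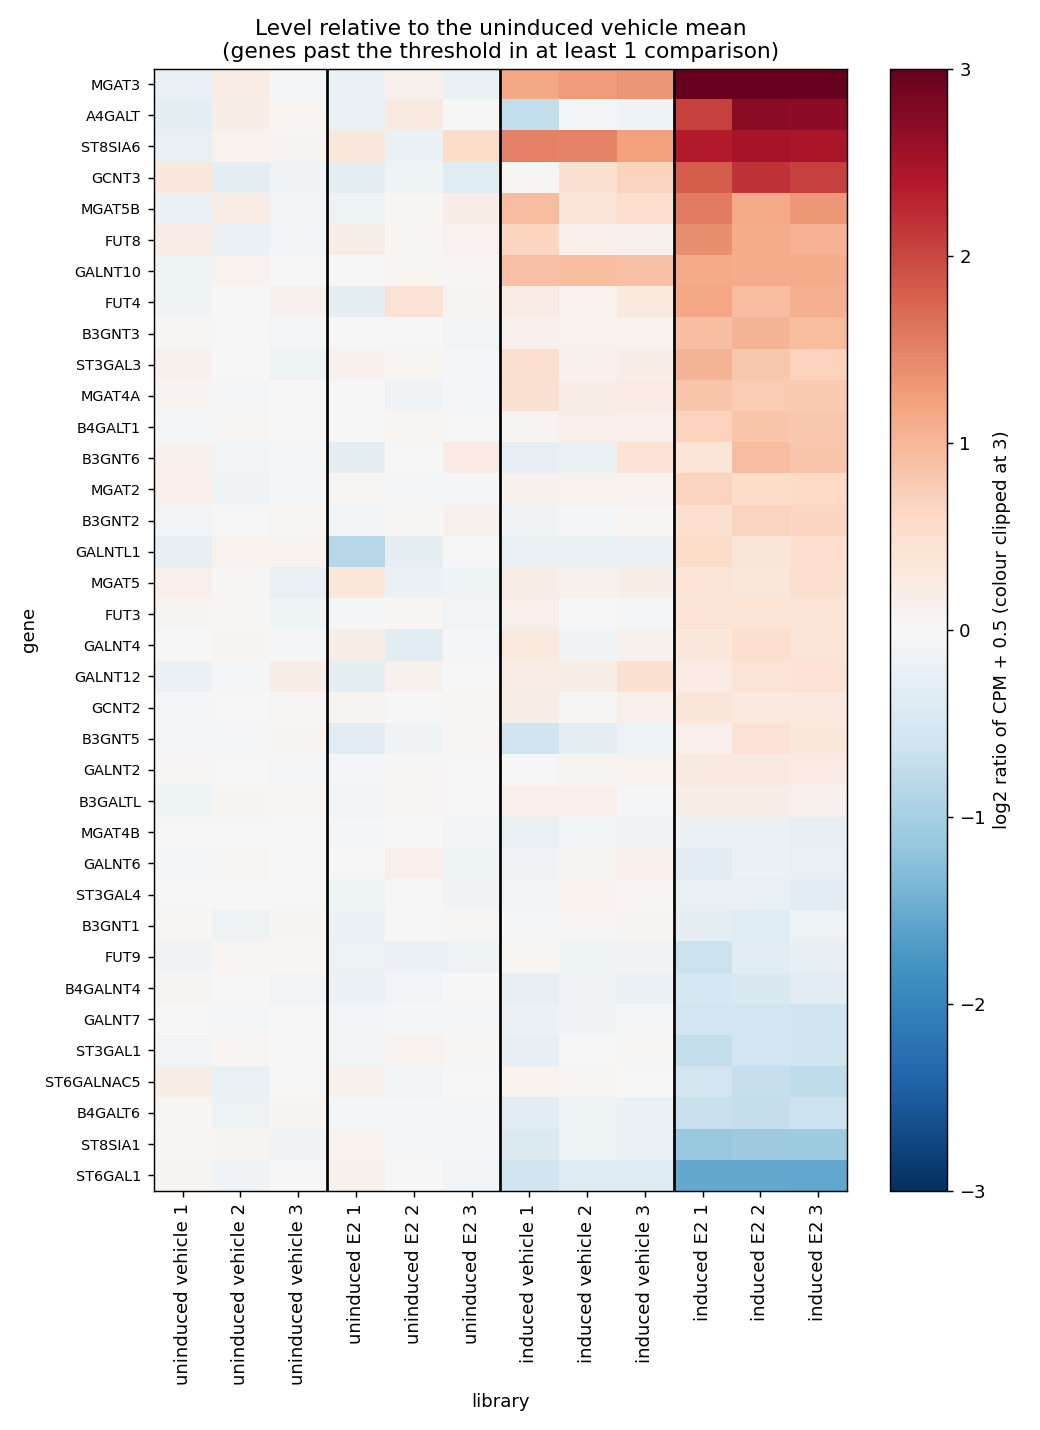
Log2 ratio of CPM + 0.5 to the uninduced vehicle mean (colour, clipped at 3) for the 36 genes past the threshold in at least 1 comparison, A4GALT and MGAT3 included (vertical) in each of the 12 libraries (horizontal). Red in the induced vehicle columns is strongest for MGAT3, ST8SIA6 and GALNT10, and the induced E2 columns hold the deepest red and blue, with ST6GAL1 at the bottom.

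Summed over each class per length, the α1,4 transferases, of which A4GALT is the tested member, went from 2.5 ± 0.679 TPM in induced vehicle to 19.5 ± 4.82 TPM in induced E2 cells (SD, n = 3). The B3GNT sum went from 183 ± 6.96 to 270.0 ± 10.7 TPM and the α2,6-sialyltransferase sum from 138 ± 4.45 to 104 ± 2.59 TPM. The MGAT sum, dominated by MGAT4B and MGAT1, was 451 ± 12.4 and 459.5 ± 3.05 TPM. The GALNT sum was 357 ± 0.467 TPM in uninduced vehicle, 434 ± 4.9 TPM in induced vehicle and 436 ± 3.1 TPM in induced E2 cells, the first step being that of GALNT10. Sums hide opposite moves within a class, as in the α2,8-sialyltransferases, at 9.41 ± 0.578 and 13.6 ± 0.533 TPM.

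The genes around the transferases supply donor sugars, carry them into the Golgi, make further chains, trim them or read them. Among 28 tested genes of nucleotide sugar synthesis, 5 rose and 1 fell with E2 in induced cells (median log2 change 0.0379), beside 9.85% that rose and 6.61% that fell among all tested genes. The same background holds for E2 in induced cells in the other lists, and 3.81% of all genes were called with doxycycline alone. With lists this short nothing is read from their shares. The fall was that of GNE, the key enzyme of sialic acid synthesis, from 226 ± 7.75 to 127 ± 4.23 CPM (log2 -0.84 ± 0.09, adjusted p = 1.77e-05). UXS1, which makes UDP-xylose, rose by log2 0.62 ± 0.06, adjusted p = 5.56e-06, NANS, which acts after GNE, by log2 0.30 (adjusted p = 4.62e-05), and GFPT1, the entry enzyme of UDP-GlcNAc synthesis, by log2 0.25 (adjusted p = 0.00158). NANS was the only one of the 28 called with doxycycline alone (log2 0.37 ± 0.04, adjusted p = 4.32e-05). Of 14 listed transporters of the SLC35 family, not all of which carry nucleotide sugars, 1 rose, SLC35B3 (log2 0.21), which is not known as a sugar carrier. The 2 that fell were SLC35C1, the GDP-fucose transporter (-0.30), and SLC35A1, the CMP-sialic acid transporter (-0.20). None of the 14 was called with doxycycline alone.

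Of 24 other glycan-building enzymes of the Golgi, 5 rose and 2 fell with E2 in induced cells. The 4 smallest p-values were those of GBGT1, the human counterpart of the Forssman synthase (log2 0.61 ± 0.09, adjusted p = 2.96e-04), CSGALNACT2, of chondroitin (0.41), C1GALT1, which makes core 1 O-glycans (0.25), and EXTL2, of heparan sulfate (-0.26). GBGT1 was also the only gene of these 24 called with doxycycline alone (log2 0.67 ± 0.11, adjusted p = 0.00167), its mean going from 4.58 CPM through 7.31 CPM to 11.1 CPM. Among 22 trimming and breakdown genes 2 rose and 2 fell: the N-glycan mannosidase MAN1C1 (log2 0.45) and the GM2 activator GM2A (0.17) against MAN1A1 (-0.35) and MAN2A1 (-0.19), which are N-glycan mannosidases too. Of 5 tested glycan sulfotransferases 2 fell, both near the limit of testing, CHST5 (log2 -1.24) and GAL3ST2 (-1.44). Of 14 lectins and mucin-type carriers 1 rose with E2 in induced cells, LGALS9 (log2 0.22), and 2 fell, LGALS8 (-0.25) and MUC15 (-0.27), and 3 rose with doxycycline alone, MUC15 (log2 0.65), MUC1 (0.36) and LGALS9 (0.29). No gene of the 6 lists was called with E2 in uninduced cells.

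Along the glycolipid route that leads to and past Gb3, genes picked for their place in it moved unevenly. UGCG, which makes glucosylceramide, gave log2 0.20 ± 0.07, adjusted p = 0.0891 with E2 in induced cells, and was not called. A4GALT stood at 2.95. B3GALNT1, which turns Gb3 into globoside, gave -0.03 ± 0.06, adjusted p = 0.802, and GLA, which breaks Gb3 down, gave 0.13 ± 0.07, adjusted p = 0.26. GBGT1, listed past globoside as the human counterpart of the Forssman synthase, was among the genes that rose, and whether its enzyme is active was not measured. Of the lactosylceramide synthases before Gb3, B4GALT6, at 1.29 TPM over all libraries, was among those that fell, while B4GALT5, at 50.5 TPM, was not called (log2 -0.19 ± 0.07). ST8SIA1, which fell, lies on the ganglioside branch and not on the route to Gb3.

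**Figure D5:**
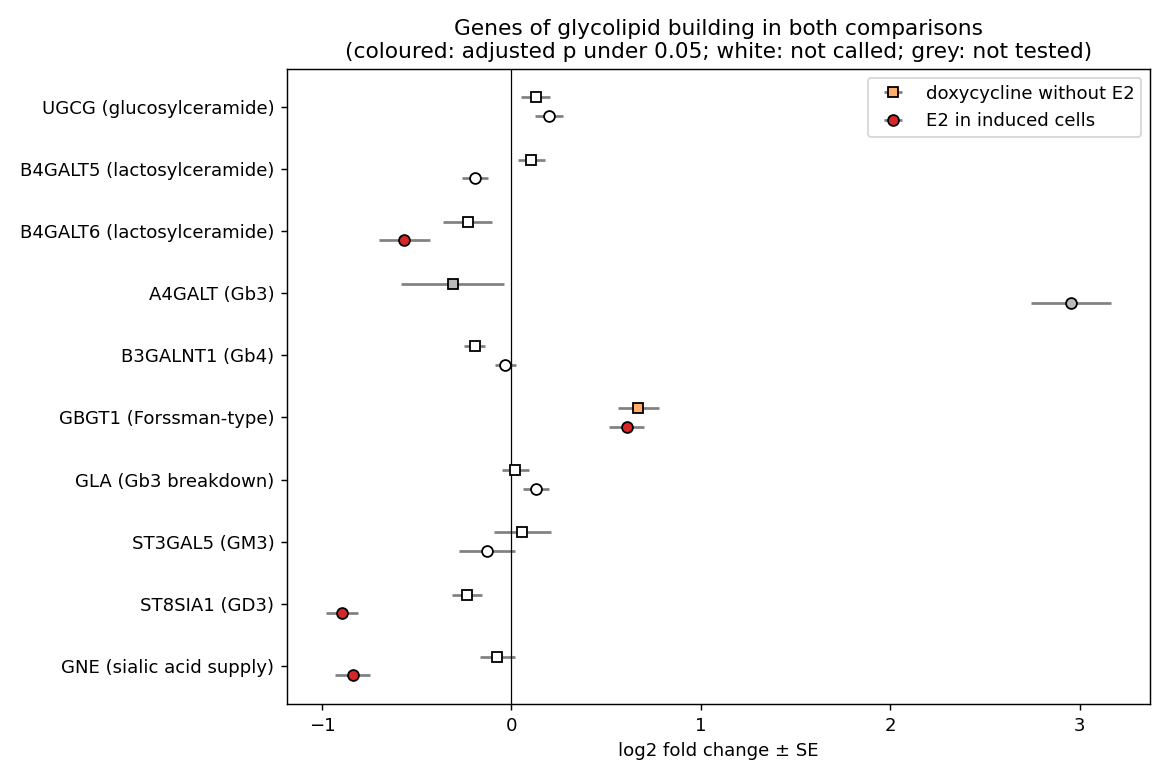
Log2 fold change ± SE (horizontal) of 10 genes of glycolipid building and sialic acid supply (vertical), with squares for doxycycline without E2 and circles for E2 in induced cells. A4GALT lies at 2.95 with E2, drawn grey in both comparisons because it was not tested, while UGCG, GLA and B3GALNT1 lie at 0.20, 0.13 and -0.03, none of them called.

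The earlier and later dates named in the deposited files, which are shared evenly by all 4 groups and so do not follow E2 or doxycycline, were compared in an edgeR fit added after the data were seen. In each of the 4 groups the library of the earlier date also held the fewest counts. Date, lane and depth therefore cannot be told apart here. Of the 65 members 13 were higher and 5 lower in the later libraries, beside 17.9% of all tested genes called (9.98% higher and 7.91% lower). The smallest adjusted p was that of GALNT14, a GalNAc transferase, at log2 -0.51 (adjusted p = 2.20e-05). A4GALT was higher in the later libraries by log2 0.62 (adjusted p = 5.72e-05), FUT8 lower at log2 -0.33 (adjusted p = 5.77e-05), and FUT2, which makes the H antigen of secretions, higher by log2 0.31 (adjusted p = 0.000138).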

How the data were processed

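RNA was prepared with RNeasy Plus and libraries with TruSeq V2, per the labels' protocols. The deposited files hold RSEM expected counts per gene symbol for 23228 genes, and a fraction of transcripts that sums to 1 in each library, which was rescaled to TPM. RSEM 1.1.16, DESeq 1.7.10 and hg19 are named in the submitters' processing notes, while for the aligner nothing is given in the sources used here. The counts, rounded, entered edgeR 4.0.16 (R 4.3.3): filterByExpr (minimum count 10, minimum total 15, leaving 14541 genes), TMM scaling, a quasi-likelihood fit with 1 mean per group over all 12 libraries (8 residual degrees of freedom), and Benjamini-Hochberg adjustment over all tested genes, with calls at an adjusted p under 0.05. Log2 fold changes are given with a standard error (±), and levels with the SD over 3 libraries. The standard error is the absolute log2 change divided by the square root of the quasi-likelihood F statistic. For A4GALT and MGAT3 it comes from the same fit and so carries that statistic, though no p-value is given. The procedure was tested on simulated data. The number of counts a library can miss (3) was taken as its floor, which with the range of library totals covers counting error only.

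The members, the enzyme classes and the 6 further gene lists were chosen with earlier results of these data known, and A4GALT and MGAT3 were chosen for their levels in the 4 groups, so no p-value between groups is given for them. Genes named were A4GALT, MGAT3, every member called in any of the 5 comparisons, the most abundant per class, and up to 4 called genes of each list. Values in every library are printed for called members with a log2 change of at least 0.5 and an average log2 CPM of at least 1. The replicate numbers pair the libraries by lane and date, since the deposited file names give libraries of 1 number the same of each. The main fit left this pairing out, so its calls are those of an unpaired model. The pairing entered only as the block among the alternatives. The biological coefficient of variation, the spread between replicates, was 5.34% in the main fit and 2.90% with the block. By deviations from group means, 8 of the 12 libraries were closest to one of their own number. Deviations from the group means of same-numbered libraries correlated at 0.104 to 0.464 (18 pairs, 12376 genes), and of differently numbered ones at -0.427 to 0.278 (36 pairs). With a filter on edgeR's average log2 CPM the lowest same-number correlation was 0.0409. Alternatives were the replicate number as a block, DESeq2 1.42.0, upper quartile and RLE scaling, no filter, and leaving out each library or number. Promoter windows came from RefSeq on GRCh38.p14. Of the 92 members 90 were matched by RefSeq accession and 65 had a window.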

Additional observations from a re-analysis of the deposited data

Results flagged for a closer look

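The E2 change differed between induced and uninduced cells, by the interaction term of the edgeR fit, for 17 members besides A4GALT and MGAT3. The interaction is given on the log2 scale, as the change in induced minus that in uninduced cells. It was positive for GCNT3 (2.29), GALNTL1 (1.37), B3GNT3 (0.88), B3GNT5 (0.77), FUT8 (0.75), B4GALT1 (0.63), B3GNT2 (0.60), MGAT4A (0.53), ST3GAL3 (0.51), MGAT2 (0.51), FUT3 (0.38) and GALNT2 (0.19). It was negative for GALNT7 (-0.41), ST3GAL1 (-0.59), ST6GALNAC5 (-0.78), ST8SIA1 (-0.90) and ST6GAL1 (-1.13). The smallest of these, GALNT2, had an adjusted p of 0.0494 and lost its call in 10 of the 12 fits that left out 1 library. ST3GAL3 lost it in 8 of these fits, FUT8 and GALNTL1 in 6 each and FUT3 in 4. Besides these and GCNT3, leaving out number 2 lost the call of B3GNT2 (adjusted p = 0.0733), B3GNT5 (0.174) and ST3GAL1 (0.0543). Besides these, GCNT3 and ST6GALNAC5, leaving out number 3 lost that of B3GNT5 (0.0561), MGAT2 (0.107), MGAT4A (0.0887) and ST3GAL1 (0.0968). B3GNT3, B4GALT1, GALNT7, ST6GAL1 and ST8SIA1 kept the call in every alternative. No result was flagged for a gap of 1 library from the rest of its group, since groups held 3 libraries.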

How the results depend on the processing

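Over 89 results for named members, 1774 values were computed, from each alternative in which the gene was tested. B3GNT6 was tested in 17 of the 20 alternatives, and the fits without it are not counted. Of these values 1612 were kept, 158 lost the call, 4 moved and 0 reversed. Kept means the same direction and side of the threshold. For A4GALT and MGAT3 in comparisons with induced E2 libraries no threshold applied. There, kept means a log2 change within 1 SD of replicates from the main value, and moved means beyond it. The 4 that moved were all of MGAT3: its log2 change with doxycycline in the presence of E2 was 4.76 without uninduced E2 replicate 2 and 4.83 without replicate 2, and its interaction was 2.55 without uninduced vehicle replicate 2 and 3.09 without uninduced E2 replicate 2. Described differences for A4GALT with E2 in induced cells ran from 2.80 to 3.13 and for MGAT3 from 2.53 to 2.69.

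Counts of called members moved with the libraries used. For E2 in induced cells the 20 that rose became 11 to 22 and the 11 that fell became 5 to 13 when a library or number was left out, with 7 that fell without induced vehicle replicate 2. For doxycycline without E2 the 4 that rose became 2 to 8 and the 1 that fell 0 to 3. For doxycycline with E2 the 24 that rose became 17 to 25 and the 10 that fell 6 to 16. For the interaction the 14 became 5 to 15, with 9 without induced vehicle replicate 2 or 3, and the 5 became 3 to 9. Leaving out a number keeps 2 libraries per group and fewer degrees of freedom. For E2 in uninduced cells the count of called members stayed 0 in every alternative. Counts over all tested genes moved as well. For E2 in induced cells, 1433 that rose and 961 that fell became 688 and 302 without number 3. Without number 1 they became 1908 and 1483. For doxycycline without E2, 355 and 199 became 88 and 18, and 643 and 439. For doxycycline with E2, 2184 and 1894 became 1236 and 818, and 2668 and 2396. For the interaction, 823 and 409 became 242 and 64, and 1276 and 829.

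With the replicate number as a block, doxycycline without E2 gave 7 that rose and 3 that fell, and the interaction 15 that rose and 8 that fell. Over all 14541 genes the block gave 805 and 651 for the first, and 1288 and 855 for the interaction. DESeq2 and upper quartile scaling each gave 2 that fell with doxycycline without E2. The block also called GALNT4 with E2 in induced cells (log2 0.34, adjusted p = 0.0199) and, for doxycycline with E2, ST3GAL6, ST6GALNAC6, B3GNT1, B4GALNT3, B4GALT2 and FUT9, and it changed no other call than those given here and in the text. The cause of these shifts was not tested. Low counts limit B3GNT6, FUT4, MGAT5B and GALNTL1.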
